A study of Mus musculus with 45 samples.

Results

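The genes described here are 36 interferon-stimulated genes of the mouse, chosen by symbol from a fixed list and looked up in both deposited expression tables, which list 19432 genes each. All 36 were listed in both tables, and all 36 passed the filter on low values, a normalized count of at least 10 in 4 libraries of the first table or in 3 libraries of the second. The study profiled whole hearts by RNA sequencing of polyadenylated RNA from frozen, powdered tissue that had been perfused with saline, 1 library per heart and 45 libraries in 12 groups. Hearts were of WT (wild-type) mice or of OE mice, in which ERBB2, a receptor tyrosine kinase of the EGF receptor family, was overexpressed transiently in cardiomyocytes. Each genotype was sampled after a sham operation or after an ischemic injury labelled MI. Sampling was at 3 stages: T1, while the transgene was on and the cardiomyocytes were dedifferentiated; T2, 2 weeks after it had been switched off; and T3, 4 weeks after. Groups held 4 hearts, except for WT MI at T2, OE MI at T2 and OE sham at T3, which held 3. The sources used here give neither strain, sex, age nor the promoter of the transgene, and not what the WT mice carried or how long after injury hearts were taken. The T1 libraries form 1 table and the T2 and T3 libraries another, and the tables were normalized separately, so levels were compared only within a table. Replicates are described only as separately numbered hearts, so the p-values measure the spread between these hearts.

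Interferons are secreted when cells sense viral or misplaced nucleic acid. Type I interferons act through the IFNAR receptor and the kinases JAK1 and TYK2 to activate ISGF3, a transcription factor complex that holds STAT2 and IRF9 and binds the interferon-stimulated response element in the promoters of its target genes. Those targets include sensors that raise the alarm again (RIG-I, MDA5, ZBP1), antiviral effectors (the IFIT, OAS, MX and GBP families) and the ubiquitin-like modifier ISG15 with its protease USP18. In the heart, resident and infiltrating macrophages respond to interferon after infarction, and cardiomyocytes, fibroblasts and endothelial cells carry the receptor too.

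The promoters show which of the genes carry the ISGF3 core element near the start site. RefSeq promoter windows of 300 bases (250 before and 50 after the start, GRCm38.p6) were at hand for 26 of the 36 genes. Its core, GAAA and GAAA with any 2 bases between them, searched on both strands, was in 17 of the 26 (65.4%), against 3.93% of 26999 other genes with a window. The gamma-activated core TTCNNNGAA, which reads the same on both strands, was in 6 of the 26 (23.1%), against 9.54% of the other genes. In Bst2 and Ifitm3 a match of one motif shared bases with a match of the other. Of the 27 matches of the first core, which may overlap each other, 18 began within 150 bases before the start. A match describes letters in this window, not a bound site. The genes whose window had no match were Cmpk2, Ifi35, Ifi44, Ifit2, Irf7, Irf9, Oasl1, Oasl2 and Xaf1.

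The following stretches are the 200 bases before the start of 6 genes that recur in the results, 5′ to 3′ on the strand of the gene, with matches of that core, or of its reverse complement, in capitals. Isg15 bears the name of the family and has overlapping matches (chr4:156200819-156201018, minus strand). Ifit2 was called in more comparisons than any other of the 36 genes and has none (chr19:34550494-34550693, plus strand). Ifit3 (chr19:34583329-34583528, plus strand) and Ifit3b (chr19:34607757-34607956, plus strand) are neighbouring copies whose matches lie in the same surrounding sequence. Oas1a (chr5:120907526-120907725, minus strand) has its matches next to the start, and Ifi207 (chr1:173741810-173742009, minus strand) has 1.
Isg15: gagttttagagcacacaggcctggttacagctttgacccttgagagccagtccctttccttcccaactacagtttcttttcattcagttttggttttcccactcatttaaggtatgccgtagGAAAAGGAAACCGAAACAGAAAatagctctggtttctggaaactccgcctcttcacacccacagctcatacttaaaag
Ifit2: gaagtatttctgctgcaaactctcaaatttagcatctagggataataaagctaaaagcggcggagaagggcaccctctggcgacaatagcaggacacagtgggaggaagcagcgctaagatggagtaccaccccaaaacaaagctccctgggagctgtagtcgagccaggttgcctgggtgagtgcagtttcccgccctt
Ifit3: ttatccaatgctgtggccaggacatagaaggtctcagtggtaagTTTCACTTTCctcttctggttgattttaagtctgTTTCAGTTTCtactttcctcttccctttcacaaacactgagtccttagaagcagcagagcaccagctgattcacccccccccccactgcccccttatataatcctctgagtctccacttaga
Ifit3b: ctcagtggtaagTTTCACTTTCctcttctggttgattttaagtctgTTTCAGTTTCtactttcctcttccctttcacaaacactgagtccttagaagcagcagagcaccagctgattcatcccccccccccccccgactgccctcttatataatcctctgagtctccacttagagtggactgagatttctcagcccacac
Oas1a: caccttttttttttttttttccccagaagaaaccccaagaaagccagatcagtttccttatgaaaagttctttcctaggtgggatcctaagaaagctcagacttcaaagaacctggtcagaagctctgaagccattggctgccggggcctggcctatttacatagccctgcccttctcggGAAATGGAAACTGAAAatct
Ifi207: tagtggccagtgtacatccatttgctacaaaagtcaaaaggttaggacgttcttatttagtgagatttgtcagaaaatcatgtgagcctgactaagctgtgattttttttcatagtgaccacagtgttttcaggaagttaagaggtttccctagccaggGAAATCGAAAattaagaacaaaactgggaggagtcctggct

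**Figure D1:**
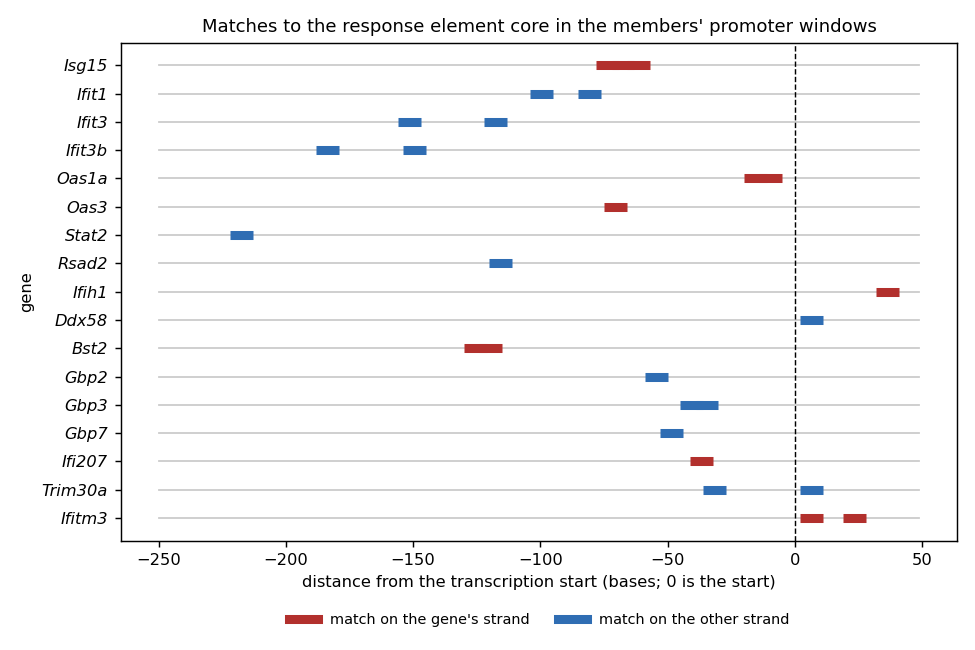
Position of matches of the interferon-stimulated response element core in the promoter windows of the 17 interferon-stimulated genes with a match, in bases from the RefSeq start site (horizontal axis), 1 row per gene, with marks coloured by strand and overlapping matches drawn as 1 longer mark. Of 27 matches, 18 began within 150 bases before the start, and the other 9 of the 26 genes with a window had none.

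Several of the genes lie in clusters of related copies, given here on GRCm38. Ifit2, Ifit3, Ifit3b and Ifit1 lie together on chromosome 19 between 34550694 and 34650009. Oas1a, Oas3 and Oas2 lie on chromosome 5 between 120730333 and 120907521, and Oasl2 and Oasl1 on the same chromosome between 114896936 and 114937915. Gbp7, Gbp3 and Gbp2 lie on chromosome 3 between 142530342 and 142638008, and Ifi207 and Ifi204 on chromosome 1 between 173723427 and 173766943. Of the exonic 50-base words of Oas1a, 57.6% also occur in other genes, as do 51.2% of those of Ifit3, 45% of those of Ifit3b and 30.2% of those of Ifi204. Reads of these 4 genes may have been split between copies, and their values are uncertain to that extent. The sources used here do not say whether the libraries were stranded. Oasl1, Irf7, Usp18, Ifi35, Dhx58 and Gbp2 each share part of their exonic bases with an antisense gene. Only reads within those shared bases cannot be told apart from reads of the antisense gene. Irf9, Gbp7, Parp14 and Rtp4 share part of their exonic bases with another gene on the same strand, and reads there are uncertain too.

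Recovered read totals were 14199741 to 19015856 per library. Erbb2 reads were 246 ± 3.28 normalized counts in WT sham and 1697 ± 692 in OE sham hearts at T1 (mean ± SD, n = 4). By T3 they were 204 ± 22.2 (n = 4) and 237 ± 2.56 (n = 3). The 9 cardiomyocyte markers were all detected in every group and summed to at least 620456 normalized counts per library. Normalized counts are the authors' read counts divided by a size factor per library. Differences are in log2(normalized count + 1), each with its standard error (SE) from limma, and a gene was called where its p, adjusted by Benjamini and Hochberg's method over all 15375 genes tested in the T1 table or 15533 in the other, was under 0.05. The pseudocount of 1 understates differences of genes with few reads, such as Oas3, Mx1 and Zbp1.

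Among the 36 genes the level per kilobase of exon differed widely in WT sham hearts at T3. Ifitm3, a membrane protein that blocks the entry of enveloped viruses, was highest at 1325 ± 95.2 normalized counts per kb (SD, n = 4). Ifi27l2a followed at 444 ± 118, Bst2 (tetherin, which holds budding virions at the cell surface) at 187 ± 28.1 and Gbp2 at 167 ± 42.5, the last pair within their spread of each other. Isg15 was 18th at 40.6 ± 9.06 per kb. Oas3, which makes the 2′-5′ oligoadenylates that switch on RNase L, was lowest at 0.785 ± 0.549 per kb. Ifitm3, Ifi27l2a, Bst2 and Gbp2 held the 4 highest places, in this order, in the WT sham hearts of all 3 stages.

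Averaged over the 36 genes, the level in each library, in log2 from the mean of its table, gives an overview that carries no test. For the 4 WT sham hearts of T3 it was -0.28 ± 0.23 (SD), and for the 3 OE sham hearts -0.78 ± 0.12. For injured hearts of T3, 4 of each genotype, it was 0.49 ± 0.17 in WT and 0.33 ± 0.34 in OE. The 3 OE sham libraries lay below every other library of their table, from -0.86 to -0.64, and held the lowest value in the table for 14, 3 and 14 of the 36 genes. At T2 the sham means were -0.01 ± 0.32 in WT and -0.01 ± 0.07 in OE hearts, and the means after injury were 0.22 ± 0.46 in WT and -0.12 ± 0.18 in OE hearts. Replicate 2 of WT MI at T2 stood apart from the others of its group at 0.73, with the highest value of that group for 35 of the 36 genes, and results that rest on it are given with and without it. At T1 the means ran from -0.27 ± 0.25 in WT sham to 0.20 ± 0.12 in OE MI hearts. Most of the genes also shifted together in other hearts. Among them, WT sham T1 replicate 3 and OE MI T2 replicate 4 were each highest of their group for 29 genes. WT sham T2 replicate 1 was lowest of its group for 28.

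**Figure D2:**
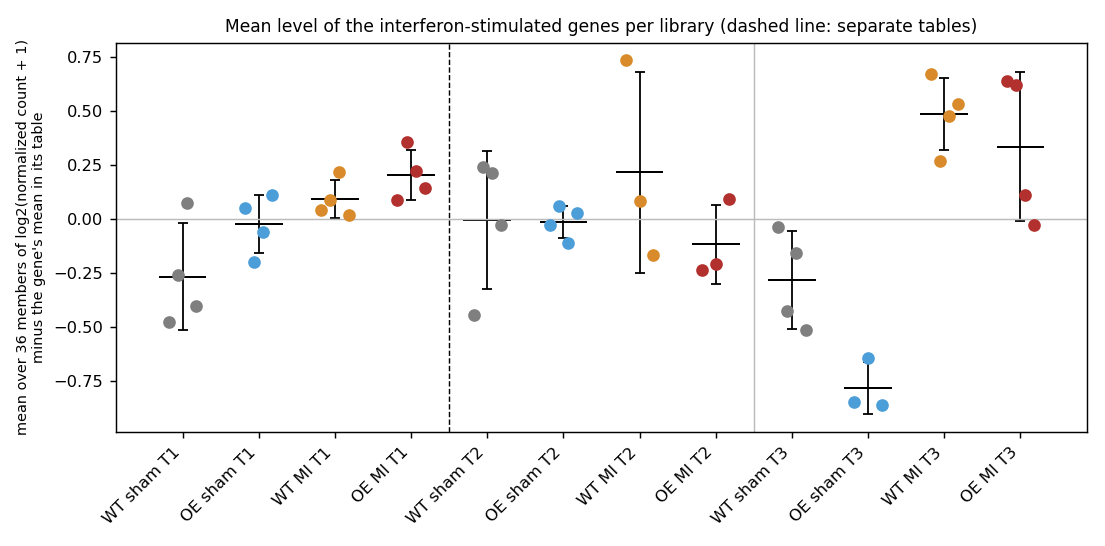
Mean level of the 36 interferon-stimulated genes in each library, in log2 difference from the mean of its own table (vertical axis), by group and stage; each point is 1 library, each horizontal line a group mean and each bar its SD, and a dashed line parts the 2 tables. The OE sham libraries of T3 lie between -0.86 and -0.64, below all other libraries of the T2 and T3 table.

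The most calls came with injury at T3. In WT hearts 21 of the 36 genes rose after MI and none fell, where 8.25% of all genes tested rose and 6.67% fell. In OE hearts 34 of the 36 rose and none fell, where 11.1% of all genes rose and 7.99% fell. The median difference over the 36 genes was 0.65 in WT hearts (range 0.16 to 2.41), and all 36 values were positive. In OE hearts it was 0.99 (0.34 to 3.14), which is a 1.99-fold difference. The 2 comparisons share no libraries. The 21 genes that rose in WT hearts were all among the 34 that rose in OE hearts. With 34 of the 36 called there, an overlap close to complete was bound to follow, so it does not show that the same genes respond. The libraries of the groups did not overlap for 21 genes in WT hearts (9.72% of all genes tested were as separate in this direction) and for 33 in OE hearts (13.5% of all genes). Scaling by library totals moved the median of all genes by 0.18 in WT and 0.15 in OE hearts, and the medians of the 36 genes were 0.83 and 1.15 on that scale. The WT count was 13 without WT MI replicate 1.

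Of the 3 transcription factor genes, Irf7 rose in both genotypes, and Irf9 and Stat2 in OE hearts. Irf7, the factor that amplifies type I interferon production, rose by 0.98 ± 0.28 in WT and 1.31 ± 0.31 in OE hearts. Irf9, the DNA-binding part of ISGF3, rose by 0.57 ± 0.15 (limma adjusted p = 0.00949) in OE hearts and differed by 0.35 ± 0.14 (limma adjusted p = 0.0839) in WT hearts. Stat2, the activating part, rose by 0.66 ± 0.15 (limma adjusted p = 0.00474) in OE hearts, and its difference in WT hearts was 0.36 ± 0.14 (limma adjusted p = 0.0861).

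Among the sensors, Ddx58 encodes RIG-I, which detects viral RNA by its 5′ end. Its normalized counts at T3 were 286, 265, 299.6 and 284 in WT sham hearts and 439.6, 359, 406 and 392 in WT MI hearts. They were 240.2, 246 and 227 in OE sham and 397, 368, 343 and 314 in OE MI hearts. In both genotypes every injured heart was above every sham heart, and Ddx58 rose by 0.49 ± 0.10 (limma adjusted p = 0.00203) in WT and 0.57 ± 0.11 (limma adjusted p = 0.0011) in OE hearts. Ifih1, which encodes the long-RNA sensor MDA5, rose in OE hearts by 0.76 ± 0.18, and so did Dhx58, which encodes their regulator LGP2, by 1.27 ± 0.25.

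Zbp1, a sensor of Z-form nucleic acids that can start necroptosis, had the largest difference of the 36 genes in both genotypes. It had 21.7, 8.21, 12.9 and 6.13 normalized counts in WT sham hearts and 62.1, 57.3, 79.6 and 54.5 in WT MI hearts. It had 1.19, 6.71 and 8.96 in OE sham and 74.7, 56.5, 28.2 and 42.97 in OE MI hearts. No injured heart was as low as any sham heart. The rise was 2.41 ± 0.54 (limma adjusted p = 0.00461) in WT and 3.14 ± 0.59 (limma adjusted p = 0.00112) in OE hearts.

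Ifi204 and Ifi207 belong to the PYHIN family, and Ifi204 is known as a sensor of cytosolic DNA in mouse cells. Ifi204 had 104, 115, 83.3 and 72.5 normalized counts in WT sham and 172, 155, 233 and 129.5 in WT MI hearts. It had 41.8, 45.9 and 44.8 in OE sham and 178, 217, 163 and 188 in OE MI hearts. The groups did not overlap in either genotype, and the sham groups did not overlap each other. Ifi204 rose by 0.86 ± 0.20 (limma adjusted p = 0.00594) in WT hearts and by 2.05 ± 0.22 (limma adjusted p = 3.11e-06) in OE hearts, the smallest p of the 36 genes there. Ifi207 had 320.2, 284, 273 and 368 in WT sham and 328, 378, 517 and 401 in WT MI hearts, groups that overlapped. It had 173, 178 and 221 in OE sham and 434, 469.5, 441 and 447 in OE MI hearts, with no overlap. The difference of Ifi207 was 0.37 ± 0.18 (limma adjusted p = 0.16) in WT hearts, and in OE hearts it rose by 1.24 ± 0.19 (limma adjusted p = 0.000263).

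**Figure D3:**
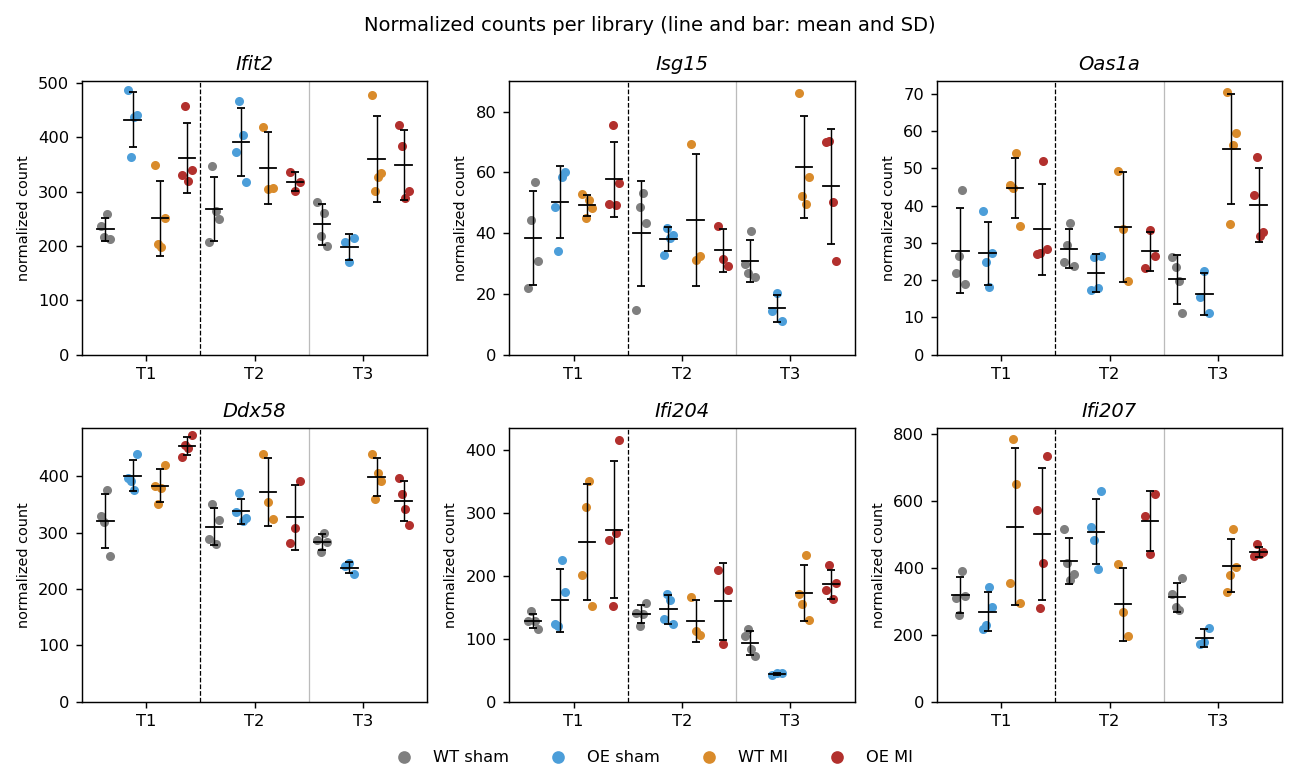
Normalized counts of Ifit2, Isg15, Oas1a, Ddx58, Ifi204 and Ifi207 in every library (vertical axis, linear from 0), by group and stage; lines and bars are group means and SDs, and a dashed line parts the 2 tables. At T3 the OE sham libraries of Ifi204 lie between 41.8 and 45.9 and the OE MI libraries between 163.1 and 216.8.

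Isg15 tags proteins in interferon-treated cells, and Usp18 removes the tag and also dampens the receptor. Isg15 is described because it bears the name of the group, a choice made after its values were seen. Its normalized counts were 29.7, 27.0, 40.7 and 25.5 in WT sham and 86.2, 52.3, 49.6 and 58.4 in WT MI hearts. They were 14.3, 20.1 and 11.2 in OE sham and 70.1, 70.3, 50.1 and 30.9 in OE MI hearts. Within each genotype every injured heart was above every sham heart, although OE MI replicate 4 was not far above. Isg15 rose by 0.97 ± 0.32 (limma adjusted p = 0.0412) in WT and 1.76 ± 0.35 (limma adjusted p = 0.00137) in OE hearts. Usp18 rose by 0.96 ± 0.24 and 1.09 ± 0.26 in the same order.

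The 4 IFIT genes, whose proteins bind viral RNA and block its translation, all rose in both genotypes. Ifit1 rose by 0.97 ± 0.26 in WT and 1.29 ± 0.28 in OE hearts. Ifit2 had 281, 218, 259.9 and 199 normalized counts in WT sham and 478, 302, 328 and 334 in WT MI hearts, with no overlap. It had 208, 171 and 215 in OE sham and 423, 384, 288 and 302 in OE MI hearts, again with no overlap. The rise of Ifit2 was 0.58 ± 0.16 in WT and 0.80 ± 0.18 in OE hearts. Ifit3 rose by 1.08 ± 0.25 and 0.93 ± 0.27, and its copy Ifit3b by 0.88 ± 0.21 and 1.17 ± 0.23. The ratio of Ifit3 to Ifit3b in single libraries of this table ran from 1.52 to 3.50.

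Of the 5 OAS and OAS-like genes, Oas1a, Oasl1 and Oasl2 rose in both genotypes, and Oas2 and Oas3 in OE hearts. Oas1a had 26.3, 23.5, 19.8 and 11.2 normalized counts in WT sham and 70.5, 35.2, 56.2 and 59.4 in WT MI hearts. It had 15.5, 22.4 and 11.2 in OE sham and 42.8, 53.1, 31.9 and 33.1 in OE MI hearts. No sham heart reached an injured heart of its genotype. Oas1a rose by 1.43 ± 0.28 (limma adjusted p = 0.00145) in WT hearts, the smallest p of the 36 genes there, and by 1.27 ± 0.30 (limma adjusted p = 0.00551) in OE hearts. Oasl2 had 111, 172 and 113 in OE sham and 393, 455, 282 and 230.3 in OE MI hearts, with no overlap, and rose by 1.34 ± 0.24, against 0.93 ± 0.22 in WT hearts. Oas2 rose by 1.01 ± 0.23 and the scarce Oas3 by 2.22 ± 0.59 in OE hearts. Their differences in WT hearts were 0.59 ± 0.22 (limma adjusted p = 0.0655) and 1.24 ± 0.55 (limma adjusted p = 0.125).

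The MX genes encode dynamin-like GTPases that trap viral nucleoproteins. Mx1 rose by 1.87 ± 0.44 in WT and 1.88 ± 0.48 in OE hearts. Mx2, annotated as a polymorphic pseudogene, rose by 0.80 ± 0.20 and 0.61 ± 0.22. Rsad2 (viperin, which makes a chain-terminating nucleotide) rose by 0.86 ± 0.27 in OE hearts. Its neighbour Cmpk2, a mitochondrial nucleotide kinase gene, differed by 0.34 ± 0.14 (limma adjusted p = 0.0805) there and was 1 of the 2 genes called in neither genotype. The other was Ifi35, with 0.37 ± 0.16 (limma adjusted p = 0.0983) in OE hearts.

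At the membrane, Ifitm3 had 934, 806, 949 and 903 normalized counts in WT sham and 1509.9, 1229, 1546 and 1372 in WT MI hearts. It had 785, 835 and 615 in OE sham and 1298, 1553, 1117 and 1177 in OE MI hearts. The groups did not overlap in either genotype, and Ifitm3 rose by 0.65 ± 0.13 (limma adjusted p = 0.00213) and 0.79 ± 0.14 (limma adjusted p = 0.00094). Bst2 rose by 0.65 ± 0.17 in WT and 0.98 ± 0.18 in OE hearts. Gbp2, Gbp3 and Gbp7, GTPases that attack vacuoles of intracellular microbes, rose in OE hearts by 0.66 ± 0.22, 0.90 ± 0.32 and 0.67 ± 0.23, and none of the 3 was called in WT hearts.

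Of the remaining genes, Ifi27l2a, of the ISG12 family, had 99.2, 138 and 44.8 normalized counts in OE sham and 754, 554, 223 and 214 in OE MI hearts. OE MI replicates 1 and 2 were high and replicates 3 and 4 nearer to sham, yet the groups did not overlap. Ifi27l2a rose by 2.13 ± 0.39 (limma adjusted p = 0.00119) in OE and 1.07 ± 0.36 (limma adjusted p = 0.0492) in WT hearts. Rtp4, Trim30a of the tripartite motif family and the ADP-ribosyltransferase gene Parp14 rose in both genotypes, by 0.81 ± 0.25, 0.53 ± 0.17 and 0.41 ± 0.11 in WT and 1.37 ± 0.27, 0.63 ± 0.18 and 0.45 ± 0.11 in OE hearts. Ifi44 and Xaf1, whose product binds the apoptosis inhibitor XIAP, rose in OE hearts, by 1.26 ± 0.35 and 0.65 ± 0.15. Of the 17 genes with the promoter core, 9 rose in WT and 17 in OE hearts, and of the 9 whose window lacked it, 4 rose in WT and 7 in OE hearts.

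**Figure D4:**
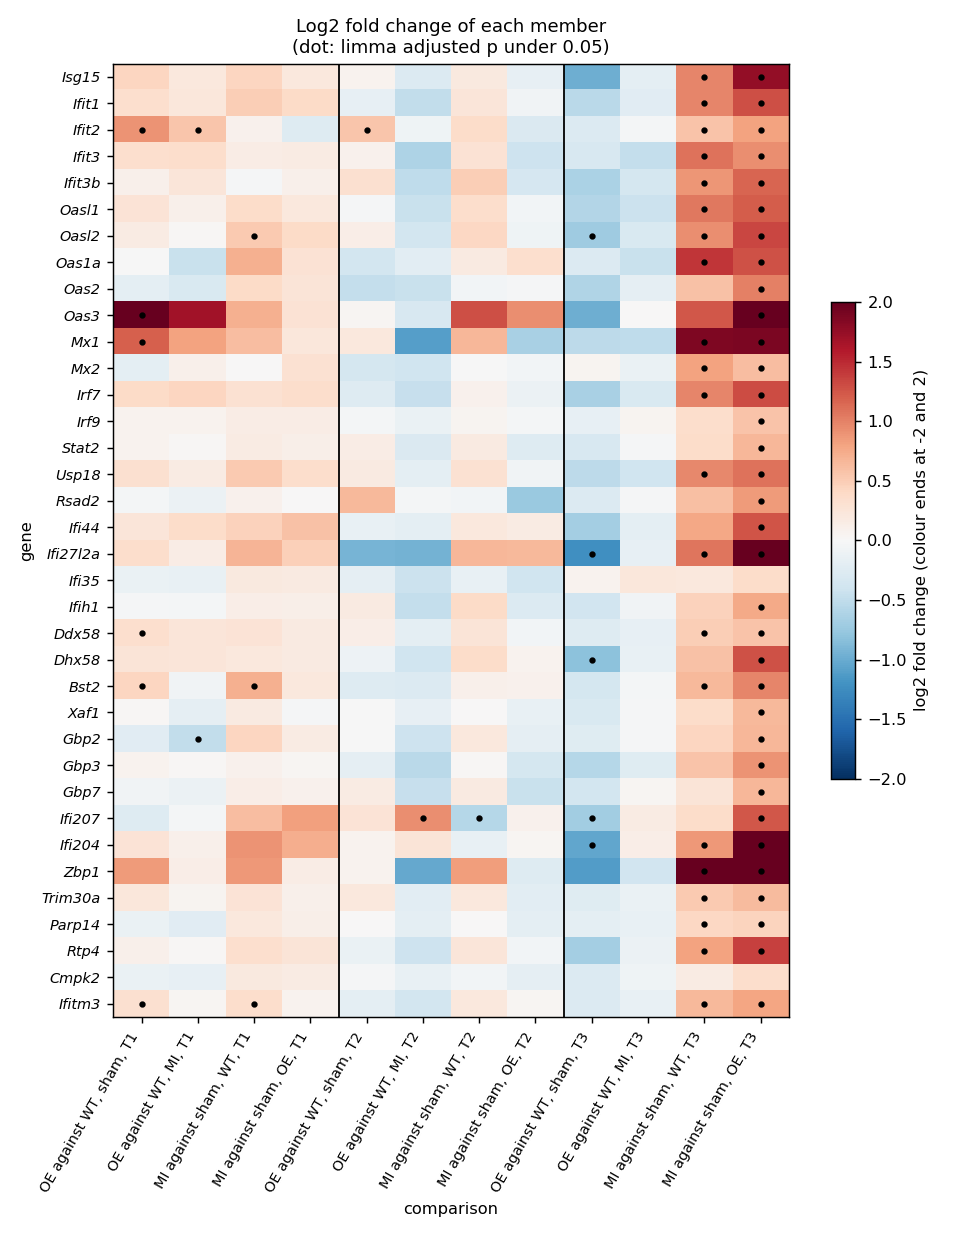
Log2 difference of each of the 36 genes (rows) in 12 comparisons (columns), as colour that ends at -2 and 2; a dot marks an adjusted p under 0.05 in limma. The 2 columns for MI against sham at T3 hold 21 dots in WT and 34 in OE hearts.

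Markers of other cells moved with injury at T3. Of 14 macrophage markers, 11 rose in WT and 9 in OE hearts. Their summed normalized counts were 6547 to 9438 in WT sham and 10954 to 15726 in WT MI hearts, and 5327 to 6009 in OE sham and 7504 to 11486 in OE MI hearts, and none of the 14 was at 0 in any group. Of 7 fibroblast markers 4 rose in WT and 6 in OE hearts, of 11 lymphocyte markers tested 1 and 3, of 8 dendritic cell markers 3 and 1, of 3 neutrophil markers 1 and 2, and of 9 endothelial markers 1 and 2. OE MI replicate 1 had a lymphocyte sum of 1522 normalized counts, against 118 to 287 in the other OE MI hearts. Its dendritic cell sum was 670, against 372 to 403. Of 9 cardiomyocyte markers, 5 fell in WT and 3 in OE hearts. In whole hearts a change in the number of cells of a type and a change in RNA per cell cannot be told apart, and the part of these markers in the rise of the 36 genes was not tested.

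Whether injury acted differently in the 2 genotypes at T3 was tested by the interaction. None of the 36 genes was called (limma); 2 had an unadjusted p under 0.05, edgeR called none, and 0.00644% of all genes were called. The median difference between the effects was 0.30, OE minus WT, and 33 of the 36 values were positive. The genes with an unadjusted p under 0.05 were Ifi204 at 1.19 ± 0.30 (limma adjusted p = 0.146) and Ifi207 at 0.86 ± 0.26 (limma adjusted p = 0.212). In injured hearts of T3 no gene was called between the genotypes either: the median difference was -0.14, none had an unadjusted p under 0.05, edgeR called none, and 3.28% of all genes were called.

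In sham hearts of T3 the genotypes differed. Of the 36 genes, 5 were lower in OE than in WT hearts and none was higher, where 6.57% of all genes tested were lower and 6.54% higher. The median difference was -0.45 (range -1.22 to 0.07), 34 of the 36 values were negative, 13 had an unadjusted p under 0.05, and for 14 genes the libraries did not overlap, as for 13.2% of all genes in this direction. These comparisons share their sham hearts with the injury comparisons above, so they are no separate evidence. Among the sensors, Ifi204 was lower, with a log2 difference of -1.05 ± 0.22 (limma adjusted p = 0.00241), as were Ifi207, with -0.70 ± 0.19 (limma adjusted p = 0.0168), and Dhx58, with -0.82 ± 0.25 (limma adjusted p = 0.0266). Dhx58 had 38.9, 21.1, 27.8 and 41.9 normalized counts in WT sham and 17.9, 21.3 and 13.4 in OE sham hearts, and 1 OE heart reached the lowest WT heart. Among the effectors, Oasl2 was lower, at -0.71 ± 0.24 (limma adjusted p = 0.047), with 238, 198, 262 and 166 in WT sham hearts, the lowest of which lay below the highest OE sham heart. Ifi27l2a was lower, at -1.22 ± 0.39 (limma adjusted p = 0.0422), with 254, 165, 251 and 151 in WT sham hearts, all above the OE sham hearts.

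The 5 calls in sham hearts of T3 depended on single hearts. Isg15 differed by -0.98 ± 0.35 (limma adjusted p = 0.06) and Ifit2 by -0.27 ± 0.18 (limma adjusted p = 0.345). The count was 1 without OE sham replicate 1, 2 without WT sham replicate 1 or OE sham replicate 3, and 3 without WT sham replicate 3 or 4. With edgeR 3 were called (5.5% of all genes were lower), with scaling by library totals 2 (3.51% lower), and with no filter on low values 3. Of the cell markers, 1 of 14 macrophage markers (Cd163), 2 of 9 cardiomyocyte markers and 5 of 9 endothelial markers were lower, and none was higher, in OE sham hearts. The endothelial sum was 14361 to 14927 in OE and 16847 to 17286 in WT sham hearts. The macrophage sum was 5327 to 6009 in OE and 6547 to 9438 in WT sham hearts. The part of these markers in the result was not tested.

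Within OE sham hearts, T3 could be set against T2 in the same table, a comparison added after the data were seen. Of the 36 genes 21 were lower at T3 and none higher, where 15.1% of all genes tested were lower and 15.8% higher. The median difference was -0.68, and the libraries of 27 genes did not overlap, as for 20.7% of all genes in this direction. Ifi204 went from 131, 171, 162 and 124 normalized counts at T2 to the low T3 values given above, a difference of -1.70 ± 0.22 (limma adjusted p = 4.85e-06). Ifi207 went from 523, 483, 397 and 629 at T2, a difference of -1.40 ± 0.19 (limma adjusted p = 1.38e-05). Ifit3b, with 59.7, 79.9, 65.1 and 47 at T2 and 22.7, 24.6 and 29.1 at T3, differed by -1.25 ± 0.23 (limma adjusted p = 0.000222). In each of the 3 genes every heart of T3 was below every heart of T2. Ifit2 fell by 0.97 ± 0.18, Oasl2 by 1.18 ± 0.24, Rsad2 by 1.07 ± 0.27, Ifih1 by 0.73 ± 0.18 and Ddx58 by 0.50 ± 0.11. Of the cell markers, 6 of 7 fibroblast, 5 of 9 endothelial, 1 of 11 lymphocyte, 1 of 8 dendritic cell and 1 of 3 neutrophil markers were also lower at T3, while 3 of 9 cardiomyocyte markers and 1 of 14 macrophage markers were higher. The macrophage sum was nevertheless lower, with 5327 to 6009 normalized counts at T3 against 6188 to 6821 at T2. The part of these markers in the result was not tested. In WT sham hearts none of the 36 genes was called between T2 and T3 (limma); 6 had an unadjusted p under 0.05, edgeR called none, the median difference was -0.24, and 0.341% of all genes were called.

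The difference between the genotypes in sham hearts was tested against itself over the 2 stages. At T3 it was lower than at T2 for 4 of the 36 genes and higher for none, where 6.11% of all genes were lower and 6.19% higher. The 4 were Ifi204 at -1.12 ± 0.30 (limma adjusted p = 0.0163), Ifi207 at -0.97 ± 0.26 (limma adjusted p = 0.0172), Ifit2 at -0.82 ± 0.24 (limma adjusted p = 0.0266) and Ifit3b at -0.96 ± 0.31 (limma adjusted p = 0.0438). The count was 2 without WT sham T2 replicate 1, OE sham T2 replicate 2, WT sham T3 replicate 3 or OE sham T3 replicate 1. In injured hearts none of the 36 was called in this test (limma), 2 had an unadjusted p under 0.05, edgeR called none, and 0% of all genes were called.

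The effect of injury itself was compared between T2 and T3, also after the data were seen. In OE hearts it was larger at T3 for 16 of the 36 genes and smaller for none, where 1.76% of all genes tested were larger and 0.843% smaller, and the median difference was 1.13. These differences include the fall of the OE sham hearts from T2 to T3 given above, with its median of -0.68. The mean level over the 36 genes went from -0.01 to -0.78 in OE sham hearts and from -0.12 to 0.33 in OE MI hearts. A larger effect therefore does not by itself mean higher counts in injured hearts, whose change between stages was not tested. Zbp1 had 3.40 ± 0.83 (limma adjusted p = 0.028), Mx1 2.53 ± 0.67 (limma adjusted p = 0.0398), Ifi204 2.00 ± 0.31 (limma adjusted p = 0.00078) and Isg15 1.92 ± 0.49 (limma adjusted p = 0.0331). The count rested on single hearts. It was 1 without OE MI T2 replicate 3, 2 without OE MI T3 replicate 1 or 2, 3 without OE sham T3 replicate 1, 4 without OE sham T2 replicate 2, 5 without OE sham T3 replicate 3, 7 without OE MI T2 replicate 1 and 10 without OE sham T2 replicate 1 or 4, and it was 27 without OE MI T3 replicate 4. In WT hearts the median difference was 0.53 and no gene was called (limma); 9 had an unadjusted p under 0.05, edgeR called none, and 0.129% of all genes were called. Without WT MI T2 replicate 2, 1 gene was called in WT hearts.

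At T2 itself few of the 36 genes were called in any comparison. Between the genotypes in sham hearts only Ifit2 was called, higher in OE hearts (limma), where 11.8% of all genes were higher and 13.6% lower. The median difference was 0.00. Ifi27l2a was lower in OE hearts without overlap but was not called, and 13.5% of all genes were as separate in this direction. It had 146, 209, 297 and 193 normalized counts in WT sham and 109, 102, 101 and 119 in OE sham hearts. Ifit2 had 207, 348, 265 and 249.9 normalized counts in WT sham and 374, 468, 405 and 318 in OE sham hearts, groups that overlapped at 1 heart each, and differed by 0.56 ± 0.16 (limma adjusted p = 0.0135). The count was 0 without OE sham replicate 2, and 2, both higher, without WT sham replicate 2 or OE sham replicate 3. Without WT sham replicate 1 the call of Ifit2 was lost and 2 genes were lower. Of the cell markers in this comparison, 6 of 7 fibroblast markers were higher, and 6 of 14 macrophage, 6 of 9 cardiomyocyte and 1 of 9 endothelial markers lower in OE hearts, and their part in the result was not tested. In injured hearts Ifi207 was higher in OE than in WT hearts, by 0.94 ± 0.20 (limma adjusted p = 0.0176), where 0.406% of all genes were higher and 1.15% lower. It had 409.9, 267 and 196 in WT MI and 554, 442 and 619 in OE MI hearts, with no overlap. Of all 36 values 34 were negative, with a median of -0.37 that was -0.08 without WT MI replicate 2. Of 14 macrophage markers 6 were lower in OE hearts too, with sums of 7415 to 8189 normalized counts against 10964 to 17880 in WT hearts, no marker of the other cell types was called, and the part of these markers was not tested. The call of Ifi207 was lost without WT MI replicate 3 or 4, or OE MI replicate 1 or 4, each of which left 0 called.

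Injury at T2 gave 1 call in WT hearts. Ifi207 had 517, 414, 364 and 382 normalized counts in WT sham hearts, 1 injured heart lay within their range, and it fell by 0.58 ± 0.19 (limma adjusted p = 0.033), where 10.4% of all genes fell and 11.4% rose. The count was 0 without WT sham replicate 1 or WT MI replicate 3, and without WT sham replicate 2 or WT MI replicate 4 the fall of Ifi207 was lost and 3 genes were called, all higher; edgeR called none, and with scaling by library totals 1 gene was called higher and none lower, where 17.3% of all genes were higher. The median over the 36 genes was 0.21, and -0.05 without WT MI replicate 2. That heart also had the highest macrophage marker sum of its group, 17880 normalized counts against 11630 and 10964. With injury 7 of 7 fibroblast, 5 of 14 macrophage, 3 of 11 lymphocyte, 2 of 8 dendritic cell and 1 of 3 neutrophil markers rose, 7 of 9 cardiomyocyte markers and 1 of 9 endothelial markers fell, and their part in the result was not tested. In OE hearts no gene was called (limma), 2 had an unadjusted p under 0.05, edgeR called none, the median was -0.11, and 0.0258% of all genes were called. The interaction at T2 called none of the 36 (limma), with 5 at an unadjusted p under 0.05, none by edgeR, a median of -0.32 and 4.94% of all genes called; 1 gene was called without WT MI replicate 2.

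At T1, with the transgene on, 6 of the 36 genes rose in OE against WT sham hearts and none fell, where 24% of all genes tested rose and 23.3% fell. The median difference was 0.19 (range -0.25 to 2.09). Among the effectors, Ifit2 had 237, 217, 258 and 212 normalized counts in WT sham and 488, 364, 438 and 441 in OE sham hearts. No OE heart was as low as any WT heart, and Ifit2 rose by 0.90 ± 0.16 (limma adjusted p = 0.000275). Oas3 had 0, 3.80, 5.68 and 3.18 in WT sham and 10.8, 14.8, 12.4 and 16.8 in OE sham hearts, low counts without overlap, and rose by 2.09 ± 0.70 (limma adjusted p = 0.0222). Mx1 rose by 1.20 ± 0.44 (limma adjusted p = 0.0333).

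At the membrane, Ifitm3 had 1048, 1131, 1251 and 1085 normalized counts in WT sham and 1516, 1493, 1342 and 1292 in OE sham hearts at T1, with no overlap, and rose by 0.32 ± 0.10 (limma adjusted p = 0.0123). Bst2 had 148, 155, 224 and 151 in WT sham and 249, 197, 246 and 208 in OE sham hearts. WT sham replicate 3 lay within the OE range, the other WT hearts below it, and Bst2 rose by 0.42 ± 0.16 (limma adjusted p = 0.0343). The sensor gene Ddx58 had 328, 318, 375 and 259 in WT sham and 396, 392, 375 and 439.9 in OE sham hearts, with WT replicate 3 just below the lowest OE heart, and rose by 0.33 ± 0.10 (limma adjusted p = 0.00939). The count was 10 without WT sham replicate 3. Scaling by library totals moved the median of all genes by 0.31 and gave 19 calls, all higher (46.4% of all genes were higher on that scale), with a median of 0.49 for the 36 genes. Of 14 macrophage markers 7 were higher and 1 lower, of 7 fibroblast markers 6 and of 7 dendritic cell markers 4 were higher, and of 9 cardiomyocyte markers 7 and of 9 endothelial markers 2 were lower in OE sham hearts. The fibroblast sum was 85880 to 102978 against 21405 to 25344 normalized counts, and the part of these markers in the result was not tested.

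In injured hearts of T1 the genotypes differed in 2 of the 36 genes, where 14.7% of all genes rose and 15.2% fell in OE hearts. Ifit2 had 349, 204, 198 and 252 normalized counts in WT MI and 330.3, 458, 320.4 and 339 in OE MI hearts, overlapping through WT MI replicate 1, and was higher in OE by 0.55 ± 0.16 (limma adjusted p = 0.0166). Gbp2 had 571, 483, 543 and 495 in WT MI and 353, 543, 299 and 329 in OE MI hearts, overlapping through OE MI replicate 2, and was lower in OE, at -0.49 ± 0.16 (limma adjusted p = 0.0254). Scaling by library totals moved the median of all genes by 0.27, and on it 8 genes were higher and none lower, where 40.8% of all genes were higher, with a median of 0.33 for the 36 genes. The count was 1 without WT MI replicate 1 or 3 or OE MI replicate 1, 3 or 4, 4 without OE MI replicate 2 (1 higher, 3 lower) and 5 without WT MI replicate 4 (3 higher, 2 lower). Of the cell markers, 5 of 7 fibroblast and 5 of 8 lymphocyte markers were higher in OE hearts, and 7 of 9 cardiomyocyte, 1 of 14 macrophage and 1 of 9 endothelial markers lower, and their part in the result was not tested.

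Injury at T1 raised 3 of the 36 genes in WT hearts and lowered none, where 4.31% of all genes tested rose and 1.49% fell. The median difference was 0.32 (range -0.03 to 0.90), and 35 of the 36 values were positive. Bst2 had 232, 293, 358 and 229 normalized counts in WT MI hearts, all above the WT sham hearts, and rose by 0.71 ± 0.16 (limma adjusted p = 0.0175). Oasl2 went from 218, 262, 341 and 215 in sham to 361, 330.0, 446 and 346 in injured hearts, where only sham replicate 3 reached the injured range, and rose by 0.53 ± 0.14 (limma adjusted p = 0.0395). Ifitm3 had 1267, 1272, 1544 and 1701 in WT MI hearts, all above the sham hearts, and rose by 0.35 ± 0.10 (limma adjusted p = 0.046). The count was 0 without WT sham replicate 2 or 4 or WT MI replicate 3, 1 without WT sham replicate 1 or WT MI replicate 4, and 5 without WT sham replicate 3. Of 14 macrophage markers 6, of 7 fibroblast markers 6 and of 7 dendritic cell markers 2 rose with injury here, 2 of 9 cardiomyocyte markers fell, and their part in the result was not tested. In OE hearts none of the 36 was called (limma), 4 had an unadjusted p under 0.05, edgeR called none, the median was 0.18, and 0.0065% of all genes were called. The interaction at T1 called none (limma), 1 had an unadjusted p under 0.05, edgeR called none, the median was -0.10, and 0.0911% of all genes were called.

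**Figure D5:**
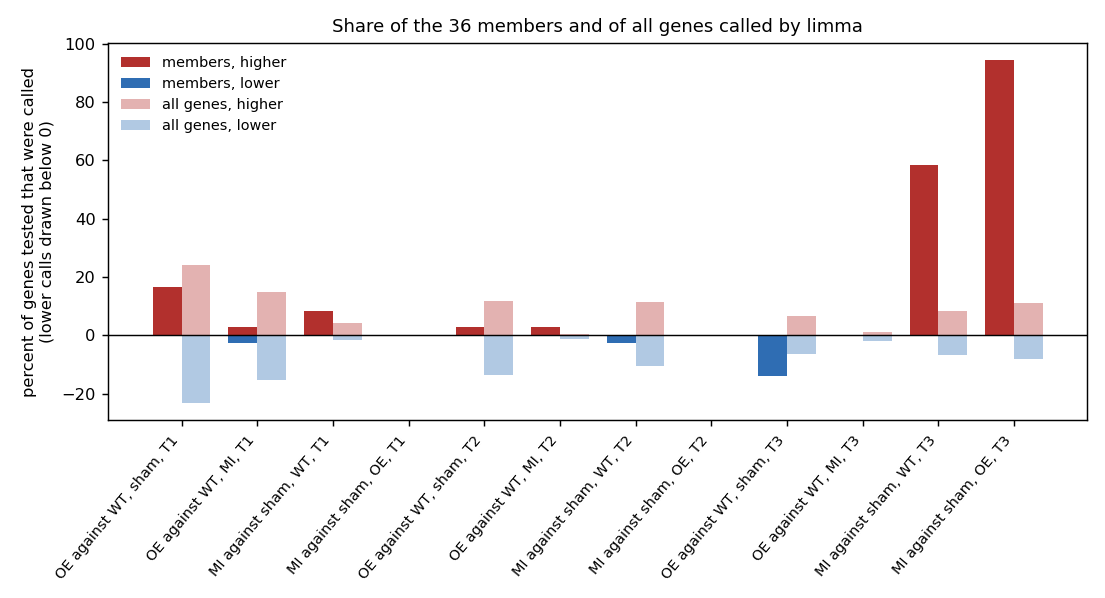
Share of the 36 interferon-stimulated genes and of all genes tested that were called higher or lower in each comparison, in percent (limma, adjusted p under 0.05), with lower calls drawn below 0. In MI against sham at T3 21 of the 36 genes in WT and 34 in OE hearts were called higher, beside 8.25% and 11.1% of all genes, while in OE against WT sham hearts at T1 the share of the 36 lay below that of all genes.

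Over the 17 comparisons of the design, Ifit2 was called in 6, Ifi207 in 5, and Ifi204, Oasl2, Bst2 and Ifitm3 in 4 each. Ifi35 and Cmpk2 were called in none. Several of these comparisons share groups, so the counts are not independent.

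Other genes of the pathway were counted from 4 lists: 17 genes of interferon receptors, JAK-STAT signalling and IRF factors, 15 upstream sensors and adaptors, 17 targets of interferon gamma and 38 other interferon-stimulated genes. The interferon genes themselves were not analysed here. Of all genes tested, 8.25% rose and 6.67% fell with injury at T3 in WT hearts, and 11.1% rose and 7.99% fell in OE hearts. With injury at T3 in WT hearts, 14 of 36 tested among the other interferon-stimulated genes rose and 1 fell, the smallest p being that of Slfn8 at 1.37 ± 0.25, and the median was 0.35. In OE hearts 21 rose and none fell, with a median of 0.48 and the smallest p for Tor3a at 0.51 ± 0.08. Of 14 sensors and adaptors tested, 5 rose in WT and 9 in OE hearts and none fell; Eif2ak2, the RNA-activated kinase PKR, rose by 0.64 ± 0.11 in WT and 0.66 ± 0.11 in OE hearts. Tlr7, an endosomal receptor of single-stranded RNA, rose by 0.99 ± 0.20 in WT hearts, and the kinase gene Ikbke by 1.27 ± 0.26 in OE hearts. Of the 17 targets of interferon gamma, 3 rose in WT hearts, among them the chemokine gene Cxcl9 at 2.04 ± 0.60, and 5 in OE hearts, among them the immunoproteasome gene Psmb8 at 0.91 ± 0.25. Of the 17 receptor and signalling genes, 2 rose and 1, the kinase gene Jak1, fell by 0.48 ± 0.07 in WT hearts, and 5 rose in OE hearts, among them the receptor gene Ifngr1 at 0.61 ± 0.10.

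In sham hearts at T3, OE against WT, 4 of the other interferon-stimulated genes were lower and none higher, 2 targets of interferon gamma were lower (Gbp6 at -1.99 ± 0.45 and Iigp1 at -1.39 ± 0.43), of the receptor and signalling genes 1 was higher and 3 lower, and of the sensors and adaptors 1 was higher and none lower. Of all genes tested in this contrast at T3, 6.57% were lower and 6.54% higher. At T1 the same contrast gave calls both ways, where 24% of all genes tested were higher and 23.3% lower. Of 35 other interferon-stimulated genes tested there, 6 were higher, among them Ube2l6 at 1.09 ± 0.16, and 4 lower, among them Pnpt1 at -0.45 ± 0.09. The receptor and signalling genes had 7 higher and 1 lower, among them the receptor genes Ifnar1 at 0.42 ± 0.08 and Ifngr1 at 0.64 ± 0.13 and the myeloid factor gene Irf8 at 1.26 ± 0.17. Of 14 sensors and adaptors, 6 were higher and 1, the adaptor gene Mavs, lower at -0.92 ± 0.12; Tmem173, which encodes the adaptor STING, was higher at 1.11 ± 0.27. Of the targets of interferon gamma 1 was higher and 5 lower, among them the GTPase genes Iigp1 at -1.30 ± 0.28 and Igtp at -0.81 ± 0.20.

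The authors' deposited table applies its own limits, an adjusted p of 0.05, a 1.5-fold difference and a largest count of 30. By those limits, the authors' deposited table called 18 of the 36 genes higher after injury at T3 in WT hearts and none lower. In OE hearts it called 29 higher and none lower. Of all 19432 genes listed, it called 840 and 1219 in these 2 comparisons, in either direction. It called 4 lower in OE against WT sham hearts at T3, and 1 higher in the same contrast at T1. Of all genes it called 622 and 3851 there, in either direction. In sham hearts of T2 it called 1 lower and none higher in OE against WT hearts, and 981 of all genes. In injured hearts of T3 the authors' deposited table called none of the 36 between the genotypes, and 203 of all genes. In injured hearts of T2 it called 1 higher in OE hearts and none lower, and 212 of all genes.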

How the data were processed

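The data were RNA-seq values of 45 mouse heart libraries in 12 groups, in 2 tables of 19432 genes that were normalized separately (16 libraries of T1, 29 of T2 and T3). Per the submitters' processing notes, cutadapt, STAR, HTSeq and DESeq2 were used with GRCm38, without versions. The deposited values are a signal, normalized counts that the authors made by dividing read counts by a size factor per library. The authors also deposited log2 fold changes, adjusted p-values and a score, the largest normalized count per gene, and per the file headers their limits are an adjusted p of 0.05, a fold of 1.5 and a largest count of 30.

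Whole reads were recovered for 100% of values (tolerance 0.1 of a read, largest distance 0.00647), with 14199741 to 19015856 reads per library; intervals from such totals cover counting error only. No 2 replicates of a group agreed within sampling noise: over 63 pairs the lowest chi-square per gene was 4.11. Genes with a normalized count of at least 10 in 4 libraries (T1) or 3 libraries (T2 and T3) were tested with limma 3.58.1 (trend, robust, R 4.3.3) on log2(normalized count + 1), fitted on every group of a table together. P-values were adjusted by Benjamini and Hochberg's method over all genes tested. The test was also run on simulated counts of independent genes, with the spread between hearts set alike for all genes. Such counts hold no heart that shifts many genes together, so that run does not show how the calls here behave. Alternatives were edgeR 4.0.16 (quasi-likelihood, TMM) on the recovered reads, scaling by library totals, a pseudocount of 5, no filter, a replicate block, the compared groups alone, and each library left out in turn. Names follow a rule: in each comparison up to 8 called genes each way by smallest p, genes called in 3 or more comparisons, and up to 3 called genes of each other list; Isg15, the other called genes given by role at T3, and all uncalled genes given with values were chosen after their values were seen. Promoters came from RefSeq (GRCm38.p6) and positions from GENCODE M21. The 36 genes, the lists and the tests were chosen with earlier results of these data known.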

Additional observations from a re-analysis of the deposited data

Results flagged for a closer look

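Among 144 groups of 4 hearts tested over the genes given by library, 9 had 1 heart far from the other 3 by Dixon's criterion at the 95% level, and chance alone flags about 1 in 20. At T1 these were Ifit2 in OE MI replicate 2 with 457.8 normalized counts, Ifit3b in WT MI replicate 1 with 57.5, Oas1a in OE MI replicate 3 with 52.0, Oas3 in OE MI replicate 4 with 10.6 and Bst2 in WT sham replicate 3 with 223.9. In the other table they were Oasl2 in OE sham T2 replicate 3 with 235.9, Gbp2 in OE sham T2 replicate 2 with 475.8, Ifit3b in WT MI T3 replicate 1 with 91.8 and Bst2 in WT sham T3 replicate 1 with 207.0.

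The effect of injury in OE hearts was larger at T3 than at T2 for 16 genes by the test of the difference (limma). The lower level of the OE sham hearts at T3, described above, is part of each of these differences. In log2 these differences were 2.00 for Ifi204, 1.504 for Ifit3b, 1.09 for Ifit2, 1.43 for Oasl2, 0.91 for Stat2, 1.15 for Ifi207, 0.63 for Ddx58 and 1.59 for Rsad2. They were 3.40 for Zbp1, 0.65 for Parp14, 1.04 for Ifih1, 1.92 for Isg15, 0.80 for Xaf1, 2.53 for Mx1, 1.43 for Rtp4 and 0.75 for Ifitm3. The number of such genes ran from 1 to 27 with 1 heart left out, as described above.

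The difference between OE and WT sham hearts was lower at T3 than at T2 for 4 genes by the same kind of test, with log2 values of -1.12 for Ifi204, -0.97 for Ifi207, -0.82 for Ifit2 and -0.96 for Ifit3b.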

How the results depend on the processing

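No called value of the 36 genes changed sign under any alternative run. Of 115 called values, 108 kept their call with edgeR, 105 with no filter on low values, 99 with the compared groups alone, 112 with a pseudocount of 5, 107 with the replicate block and 110 with scaling by library totals. Scaling by library totals moved the number of genes called to 19 (OE against WT, sham, T1), 8 (OE against WT, MI, T1), 5 (MI against sham, WT, T1), 3 (OE against WT, sham, T2), 2 (OE against WT, sham, T3), 1 (T3 against T2, WT sham) and 27 (injury effect at T3 minus T2, OE). With the compared groups alone it was 0 for OE against WT, MI, at T1 and at T2, 1 for MI against sham, WT, T1, 2 for OE against WT, sham, T2, and 0 for MI against sham, WT, T2, where edgeR also called 0. For OE against WT, sham, T3, edgeR and no filter each gave 3. That scaling moved the median of all genes to 0.22 in OE against WT, sham, T2, to 0.13 in MI against sham, WT, T2, to -0.14 in the interaction at T2, to 0.17 in the injury effect at T3 minus T2, OE, to -0.11 in the OE effect at T3 minus T2, sham, and to -0.18 in T3 against T2, OE sham. The cause of these moves was not tested.

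Equal replicate numbers gave no sign of pairing, although such correlations cannot exclude it. Deviations of same-numbered hearts correlated at -0.352 to 0.248 at T1, -0.292 to 0.0751 at T2 and -0.162 to 0.171 at T3. Those of differently numbered hearts correlated at -0.309 to 0.336, -0.133 to 0.215 and -0.243 to 0.294 in the same order. With the replicate block, 1 gene was called for MI against sham, WT, T1, 2 for OE against WT, sham, T2, and 0 for MI against sham, WT, T2.

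With 1 heart left out, the lowest and highest counts at T1 were 4 and 10 for OE against WT, sham, 1 and 5 for OE against WT, MI, and 0 and 5 for MI against sham, WT. At T2 they were 0 and 2 for OE against WT, sham, 0 and 1 for OE against WT, MI, 0 and 3 for MI against sham, WT, and 0 and 1 for the interaction. At T3 they were 1 and 6 for OE against WT, sham, 13 and 23 for MI against sham, WT, and 24 and 35 for MI against sham, OE. They were 2 and 5 for the OE effect at T3 minus T2 in sham hearts, 0 and 1 for the injury effect at T3 minus T2 in WT and 1 and 27 in OE hearts, and 14 and 21 for T3 against T2 in OE sham hearts. Oas3 and Mx1 had the lowest counts of the 36 genes, and depth limits the precision of such values.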
